A study of Homo sapiens and Mus musculus with 12 samples.

Results

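Neutrophil transcripts were examined in RNA-seq libraries of NK cells sorted from mouse spleen, as a measure of RNA from other cells. The 10 genes, S100a8, S100a9, Csf3r, Ly6g, Ngp, Camp, Ltf, Mmp8, Mmp9 and Retnlg, were taken by symbol from the 22021 rows of the mouse count table, and each symbol matched 1 row. There were 3 WT and 3 KO libraries. WT mice were Ehmt2 flox/flox, and KO mice were Ehmt2 flox/flox; Ncr1-iCre, so that Cre recombinase is made where the NK receptor gene Ncr1 (NKp46) is active. All mice were on the C57BL/6J background, young adult, and matched for age and sex. The same study also sequenced NK92MI, a human NK cell line, treated with BIX-01294, an inhibitor of EHMT2, or with the solvent DMSO. The gate of the sort that gave the sequenced cells is not given in the sources used here, nor is the number of animals behind a library, so p-values measure the spread between these libraries only. The genotype label of the KO libraries reads Ezh2-KO, while their titles name EHMT2, and they are grouped here by title. Expression is given as CPM, the count scaled to library size after TMM normalization.

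Neutrophils are short-lived granulocytes that are made in the bone marrow and circulate through the spleen. They store antimicrobial proteins and proteases in granules that are filled in order during maturation: the primary granules first, then the secondary and the tertiary granules. Mature neutrophils hold large amounts of S100a8 and S100a9 mRNA, depend on G-CSF through its receptor Csf3r, and carry Ly6g on their surface in the mouse.

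S100a8 and S100a9 encode the subunits of calprotectin, a calcium-binding protein of the neutrophil cytosol, and were the most abundant of the 10 transcripts per length in WT NK cells. Their coding sequences are shown because reads of either gene must be assigned by sequence between neighbouring, related genes. On GRCm38, S100a8 spans bases 90668978 to 90670035 of chromosome 3 (plus strand) and S100a9 bases 90692632 to 90695721 of chromosome 3 (minus strand). The sequences below run 5′ to 3′ on the coding strand, the whole coding sequence of 270 bases for S100a8 and bases 1 to 300 of 342 for S100a9, with the start codon and, for S100a8, the stop codon in capitals.
S100a8: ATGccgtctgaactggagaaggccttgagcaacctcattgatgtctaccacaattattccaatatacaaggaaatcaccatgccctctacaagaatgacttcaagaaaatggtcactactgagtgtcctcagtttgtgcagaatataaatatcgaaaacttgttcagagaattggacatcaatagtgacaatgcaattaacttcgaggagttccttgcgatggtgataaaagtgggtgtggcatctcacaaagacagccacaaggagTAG
S100a9: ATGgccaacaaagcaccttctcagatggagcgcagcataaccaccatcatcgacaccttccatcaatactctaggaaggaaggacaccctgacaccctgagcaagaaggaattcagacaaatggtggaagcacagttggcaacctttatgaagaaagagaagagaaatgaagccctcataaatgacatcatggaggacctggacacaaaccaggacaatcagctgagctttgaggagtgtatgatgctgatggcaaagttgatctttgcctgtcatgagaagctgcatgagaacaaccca
Over 270 aligned bases, 63.0% were identical between both genes, and none of the 50-base stretches of either transcript occurred in the transcripts of another gene. The same held for Ngp, Camp, Ltf, Mmp8, Mmp9 and Retnlg. In Ly6g, 0.448% of the 50-base stretches were shared with Ly6i or Gm28116, and in Csf3r 11.5% were shared with transcripts of other genes. Whether counted Csf3r reads came from such stretches was not tested.

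Total counts lay between 25891680 in WT replicate 2 and 37438868 in KO replicate 2. Ehmt2, the targeted gene, was counted at 275 to 285 CPM in WT and at 137 to 171 CPM in KO NK cells, with no overlap. The libraries also differed within each group. WT replicate 3 had the highest level of all 6 libraries for each of the 10 neutrophil genes, followed among the WT libraries by replicate 1 and then replicate 2 in each case. KO replicate 1 was the highest KO library for 9 of the 10 genes, all but Camp, and exceeded WT replicate 2 for 7 of them. The calls below are also given with single libraries left out.

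All 10 neutrophil genes had lower mean levels in KO than in WT NK cells, from 3.14-fold for Mmp9 to 22.0-fold for Ltf, but WT replicate 3 alone exceeded WT replicate 2 by 3.72-fold for Mmp9 to 24.2-fold for Ly6g. The summed level of the 10 genes was 496, 203 and 1589 CPM in WT replicates 1, 2 and 3, and 236, 46.3 and 41.7 CPM in KO replicates 1, 2 and 3. KO replicate 1 thus lay above the lowest WT library, and KO replicates 2 and 3 lay below all others. The ratio of the group means was 7.07-fold (log2 ratio −2.82), and −4.11 on the log2 scale without KO replicate 1 or −1.70 without WT replicate 3. In bulk libraries, fewer neutrophils and less RNA per neutrophil cannot be told apart. The plot of the 10 genes by library shows these levels.

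**Figure D1:**
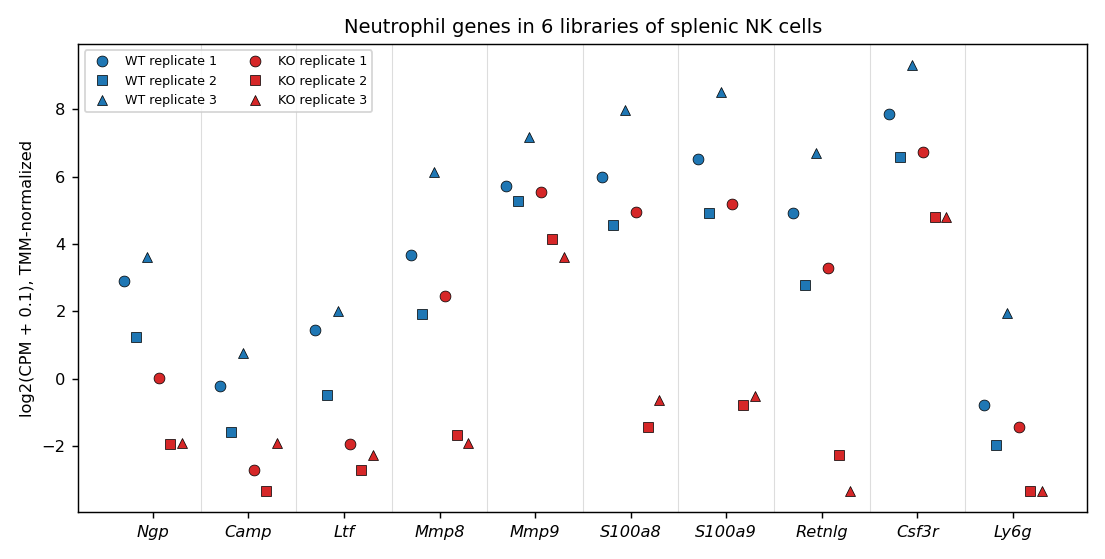
Level of each neutrophil gene in each library, as log2(CPM + 0.1) with TMM-normalized CPM; blue symbols are WT and red symbols KO libraries, and the shape marks the replicate number. WT replicate 3 is the highest point for all 10 genes, and KO replicate 1 lies among the WT libraries for S100a8, S100a9, Retnlg, Csf3r, Mmp8, Mmp9 and Ly6g.

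Of the 10 genes, 9 passed the filter on low counts and all 9 had a negative log2 fold change, with a median of −3.85. The median over all 13189 genes tested was 0.01, and 48.5% of them were below 0. With edgeR's quasi-likelihood test and a Benjamini-Hochberg adjusted p under 0.05, 2 of the 9 fell in KO NK cells, Ngp and Ltf, and 0 rose. In the same test 7.43% of all genes fell and 4.44% rose. At an unadjusted p under 0.05, 8 of the 9 were lower and 0 higher, where 20% of all genes were lower and 15.8% higher. DESeq2 called 3 of the 9 lower, Ngp, Ltf and Csf3r, beside 15.1% of all genes. With limma-voom 2 of the 9 were lower, beside 892 of all genes. The study's stricter thresholds were an adjusted p under 0.01 and an absolute log2 fold change over 0.5. With them edgeR called 0 of the 9, and also 0 of all genes in either direction. DESeq2 called 2 of the 9 lower there, beside 8.33% of all genes. Every KO library lay below every WT library for 3 of the 10 genes, Ngp, Camp and Ltf, and above for 0. Among all genes tested these shares were 19.3% below and 19.1% above. The smallest p of a two-sided exact permutation test of 3 against 3 libraries is 0.1, which these 3 genes reached, while the other 7 had p = 0.2.

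Ngp, Camp and Ltf, which belong to the secondary granules, did not overlap between the groups, although at low levels; Mmp8 and Lcn2 of the same granules did overlap. Ngp encodes neutrophilic granule protein and lies on chromosome 9 from 110419747 to 110423012. It was counted at 7.39, 2.25 and 12.1 CPM in WT replicates 1 to 3, and at 0.925, 0.162 and 0.164 CPM in KO replicates 1 to 3. In KO these came to 34, 6 and 6 counts, so that Ngp passed the filter on low counts only because of the WT libraries. Its log2 fold change was −4.12 (SE, standard error, 0.82, edgeR adjusted p = 0.0338). Ltf encodes lactoferrin, an iron-binding protein, and lies on chromosome 9 from 111019271 to 111042767. It was counted at 2.64, 0.621 and 3.92 CPM in WT and at 0.163, 0.054 and 0.110 CPM in KO NK cells, which in KO came to 6, 2 and 4 counts. Ltf thus passed the filter on low counts through WT only. Its log2 fold change was −4.43 (SE 0.77, edgeR adjusted p = 0.0279). Camp, the cathelicidin antimicrobial peptide, had 28, 6 and 60 counts in the WT libraries and 2, 0 and 6 counts in the KO libraries, and was left out of the fit by the filter. WT replicate 2 and KO replicate 3 both had 6 counts of Camp, so that their order, at 0.233 and 0.164 CPM, rests on library size. Both calls depended on single libraries. Over 17 alternative fits the adjusted p of Ngp lay between 0.000777 and 0.140, and that of Ltf between 7.55e-07 and 0.133. Without WT replicate 1, WT replicate 3, KO replicate 2 or KO replicate 3, neither gene passed, and the share of all genes called lower was then 0.48%, 0.06%, 0% and 0%, respectively.

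Mmp8 and Mmp9 encode the matrix metalloproteases of secondary and tertiary granules, neutrophil collagenase and gelatinase B. Mmp8, on chromosome 9 from 7558456 to 7568485, was counted at 12.7, 3.72 and 70.1 CPM in WT and at 5.38, 0.215 and 0.164 CPM in KO replicates 1 to 3. Its KO replicate 1 exceeded WT replicate 2, and the log2 fold change of −3.91 (SE 1.40) did not pass the test (adjusted p = 0.0928 by edgeR). Mmp9, on chromosome 2 from 164940780 to 164955850, was counted at 53.0, 38.9 and 145 CPM in WT and at 46.0, 17.4 and 12.0 CPM in KO NK cells. It had the smallest difference of the 9 genes tested, with a log2 fold change of −1.65 (SE 0.62, edgeR adjusted p = 0.103).

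S100a8 and S100a9 did not pass the test. S100a8 was counted at 63.3, 23.7 and 249.5 CPM in WT replicates 1 to 3. In KO NK cells it stood at 30.9 CPM in replicate 1, and at 0.269 and 0.548 CPM in replicates 2 and 3. S100a9 was counted at 91.9, 30.4 and 367 CPM in WT and at 36.0, 0.485 and 0.603 CPM in KO replicates 1 to 3. For both genes KO replicate 1 lay between WT replicates 2 and 1, and the other KO libraries were far below all WT libraries. The log2 fold changes were −3.41 for S100a8 (SE 1.53, edgeR adjusted p = 0.152) and −3.72 for S100a9 (SE 1.55, adjusted p = 0.130). Retnlg, which encodes the secreted resistin-like protein gamma, lies on chromosome 16 from 48872621 to 48874496 and followed the same order. It was counted at 30.0, 6.71 and 104 CPM in WT and at 9.68, 0.108 and 0 CPM in KO replicates 1 to 3, with a log2 fold change of −3.85 (SE 1.54, edgeR adjusted p = 0.119).

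Csf3r, the receptor for G-CSF, was the gene of this set with the most counts in each library and was present in all of them. It lies on chromosome 4 from 126024550 to 126044440 and was counted at 233, 96.3 and 631 CPM in WT and at 106, 27.6 and 27.9 CPM in KO replicates 1 to 3. KO replicate 1 exceeded WT replicate 2, and the log2 fold change of −2.57 (SE 0.78) had an adjusted p of 0.0645 by edgeR and of 0.0453 by DESeq2. Ly6g, a surface protein used to sort mouse neutrophils, lies on chromosome 15 from 75155240 to 75159126 and was rare in all libraries. It had 18, 4 and 140 counts in the WT libraries and 10, 0 and 0 counts in the KO libraries, with a log2 fold change of −3.99 (SE 1.46, edgeR adjusted p = 0.0975).

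The calls depended on the libraries used. Without KO replicate 1, all 10 genes passed the filter and 8 fell in KO NK cells, all but Ly6g and Camp, beside 9.96% of all genes. The log2 fold change then was −8.10 for S100a8 (adjusted p = 0.0265), −8.23 for S100a9 (0.0268), −9.67 for Retnlg (0.0311) and −7.23 for Mmp8 (0.0397) by edgeR. These sizes rest on few counts, at most 22 of S100a8, S100a9, Retnlg or Mmp8 in either remaining KO library. Camp stood at −3.38 (0.0926), and no value is given for Ly6g, because both remaining KO libraries were at 0. Without WT replicate 2, all 10 were tested and 7 fell, Camp among them, but not S100a8, S100a9 or Retnlg, beside 15.6% of all genes. Without WT replicate 3 and KO replicate 1 together, an alternative chosen on these genes' values, 8 were tested and 7 fell, beside 1.44% of all genes. Ltf did not pass there (adjusted p = 0.0825), and Ly6g and Camp were not tested. The plot of fold changes sets the values with and without the highest library of each group beside each other.

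**Figure D2:**
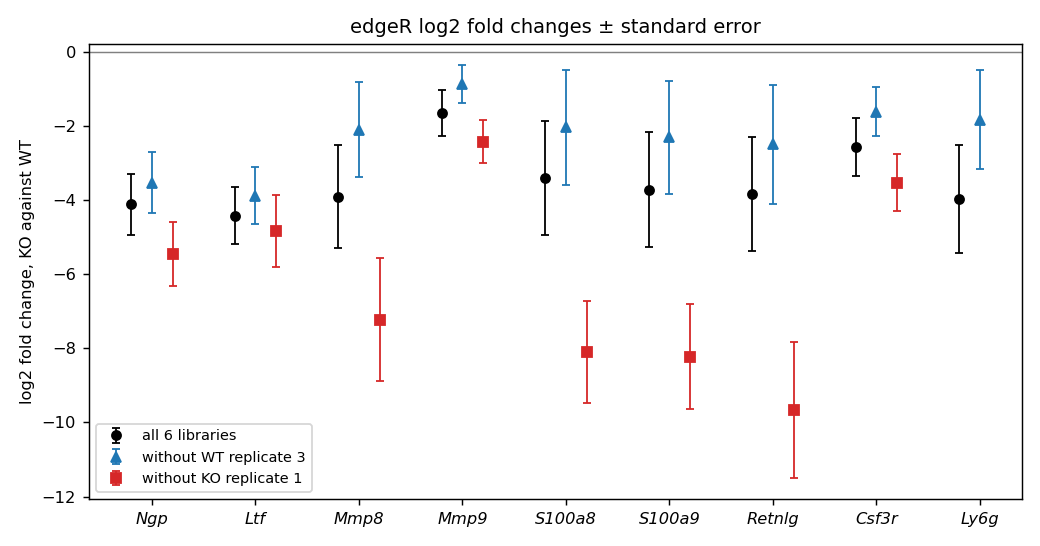
log2 fold change of KO against WT NK cells for the 9 genes tested, with bars of 1 SE from edgeR, in all 6 libraries (black), without WT replicate 3 (blue) and without KO replicate 1 (red; Ly6g is not drawn, since its remaining KO libraries were at 0). All values lie below 0. Of the genes drawn in red, S100a8, S100a9, Retnlg and Mmp8 shift most when KO replicate 1 is left out.

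The KO libraries differed among themselves by gene. The level in KO replicate 1 was 75.9 times that in KO replicates 2 and 3 together for S100a8 (95% interval 52.9 to 113), 66.2 times for S100a9 (48.4 to 93.2) and 28.3 times for Mmp8 (16.5 to 52.7). It was 5.67 times for Ngp (2.86 to 12.0), 3.82 times for Csf3r (3.62 to 4.04) and 3.12 times for Mmp9 (2.89 to 3.37). The exact intervals, conditional on the sum of the counts, cover counting error only. Low counts were mostly even, as when both reads of a pair are counted, and if so these intervals and those for shares below are too narrow. For Retnlg 356 counts stood against 4, and for Ltf 6 against 6. S100a8, S100a9, Retnlg and Mmp8 thus held at most 22 counts in KO replicates 2 and 3, whereas Csf3r and Mmp9 held 439 to 1023.

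The ratio of S100a9 to Csf3r shows the same division, and that of S100a8 to S100a9 does not. S100a8 had 68.9, 78.1 and 68.0 counts per 100 counts of S100a9 in WT replicates 1 to 3 and 86.0 in KO replicate 1. It had 55.6 and 90.9 in KO replicates 2 and 3, from 10 to 22 counts of either gene. S100a9 had 39.4, 31.6 and 58.2 counts per 100 counts of Csf3r in WT replicates 1 to 3, 33.9 in KO replicate 1, but 1.76 and 2.16 in KO replicates 2 and 3. Csf3r and Mmp9 together made up 57.8%, 66.6% and 48.9% of the counts of the 10 genes in WT replicates 1 to 3 and 64.6% in KO replicate 1. In KO replicates 2 and 3 they made up 97.2% (95% Wilson interval 96.3 to 97.9) and 95.8% (94.7 to 96.7). The share in KO replicate 1 was within the range of the WT libraries, and the shares in KO replicates 2 and 3 were above it. Which cells carry the Csf3r and Mmp9 RNA of KO replicates 2 and 3 was not tested.

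**Figure D3:**
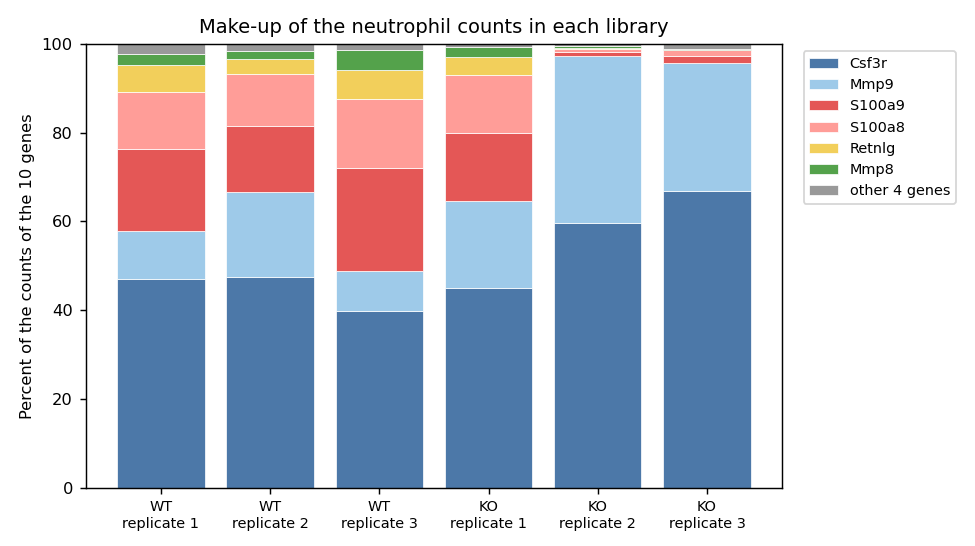
Share of each gene in the counts of the 10 neutrophil genes, in percent, for each library; Ngp, Camp, Ltf and Ly6g are drawn together. Csf3r and Mmp9 take 48.9% to 66.6% in the WT libraries and KO replicate 1, and 97.2% and 95.8% in KO replicates 2 and 3.

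Per length, S100a9 was the most abundant of the 10 transcripts in WT NK cells, at 312 ± 343 RPKM (CPM per kilobase of exon, SD, n = 3). S100a8 followed at 162 ± 174, Csf3r at 88.7 ± 77.0, Retnlg at 79.4 ± 86.1, Mmp9 at 22.3 ± 16.3 and Mmp8 at 11.9 ± 14.9 RPKM. Ngp stood at 5.94, Ly6g at 1.56, Camp at 1.14 and Ltf at 0.694 RPKM. Neighbours in this order overlapped in their spread over libraries. Within libraries S100a9 exceeded S100a8, and Csf3r exceeded Mmp9, in 6 of 6. S100a9 exceeded Csf3r in 4 of 6 libraries. In KO replicates 2 and 3 the order began with Csf3r, at 7.64 and 7.74 RPKM, and Mmp9, at 4.92 and 3.40 RPKM, with S100a9 at 0.929 and 1.16 RPKM.

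A list of 33 other neutrophil genes was examined by granule type and role. Of the 27 tested, 22 had a negative log2 fold change with a median of −1.67, 4 fell and 1 rose at an adjusted p under 0.05 by edgeR, beside 7.43% and 4.44% of all genes. Without WT replicate 1, WT replicate 3, KO replicate 2 or KO replicate 3, 0 passed in either direction. Of all genes, 0.48%, 0.06%, 0% and 0% fell in these fits, respectively, and 35, 6, 0 and 0 genes rose. At an unadjusted p under 0.05, 19 were lower and 3 higher, beside 20% and 15.8% of all genes. Every KO library lay below every WT library for 10 of the 27 and above for 2, beside 19.3% and 19.1% of all genes. Of the primary granule genes 5 of 5 tested were below 0 (median −2.66) and 2 fell. Mpo, the myeloperoxidase, was counted at 10.2, 5.04 and 9.11 CPM in WT and at 1.96, 0.862 and 1.04 CPM in KO NK cells, without overlap (log2 fold change −2.66, SE 0.39, adjusted p = 0.0239). Ctsg, cathepsin G, had a log2 fold change of −1.63 (adjusted p = 0.0407). Unlike the 10 genes above, the summed primary granule genes were highest in WT replicate 1, at 17.4 CPM, and not in WT replicate 3, at 13.8 CPM.

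Of the other secondary and tertiary granule genes, 6 were below 0 and 2 above, with a median of −1.56. Wfdc21 was called lower (log2 fold change −6.90, adjusted p = 0.0349 by edgeR), at 1.35, 0.388 and 5.94 CPM in WT NK cells. Its KO libraries held 2, 0 and 0 counts (0.054, 0 and 0 CPM). It thus passed the filter on low counts through WT only, and the size of its change rests on few counts. Anxa1, annexin A1, rose from 85.4, 119 and 123 CPM in WT to 158, 150 and 172 CPM in KO NK cells (log2 fold change 0.56, adjusted p = 0.0472). When libraries were scaled to NK genes, which moved the median of all genes from 0.01 to −0.73, Anxa1 stood at −0.17 (adjusted p = 0.505), above that median. Pglyrp1, a peptidoglycan recognition protein, had a log2 fold change of 0.33 (adjusted p = 0.137). Of the other mature neutrophil genes, 11 were below 0 and 3 above, with a median of −1.65. Il1r2, a decoy receptor for interleukin-1, fell (log2 fold change −2.86, adjusted p = 0.0387), at 5.45, 3.72 and 14.9 CPM in WT and 1.90, 0.646 and 0.768 CPM in KO NK cells. The chemokine receptor Cxcr2 (log2 fold change −2.04, adjusted p = 0.0523) and the protease Asprv1 (−1.67, adjusted p = 0.0594) did not pass, nor did G0s2 (0.52, adjusted p = 0.0723). The other genes above 0 also shifted below 0 with that median under NK gene scaling, G0s2 to −0.19, Pglyrp1 to −0.38, Clec4e to −0.11 and Cebpe to −0.58.

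Markers of other cells were summed in the same libraries. Of 10 erythroid markers listed 9 had a row, and 0 of the markers with a row were absent from all 6. The calls below are by edgeR at an adjusted p under 0.05, where 7.43% of all genes fell and 4.44% rose. Those of red pulp macrophages summed to 1410 to 6737 CPM in WT and 547 to 1257 CPM in KO NK cells, with the highest value in WT replicate 1, and 6 of 10 fell. B cell markers summed to 571 to 1639 CPM in WT and 98.4 to 536 CPM in KO NK cells. At an unadjusted p under 0.05 by edgeR, 20% of all genes were lower and 8 of 10 B cell markers were. At the adjusted p, 0 of 10 B cell markers fell. Their KO replicate 1 stood 5.09 times above the mean of KO replicates 2 and 3, close to the 5.35 times of the summed neutrophil genes. Single B cell markers ranged from 1.80 times for Cd22 to 22.8 times for Fcer2a. For the other neutrophil lists the summed ratio was 2.08 (primary granule), 1.13 (other secondary and tertiary granule) and 1.85 (other mature). Single genes with counts in KO replicates 2 or 3 ranged from 0.707 for Ctsg to 3.26 for Prtn3 (primary granule). The range was 0.888 for Pglyrp1 to 42.9 for Chil3 (other secondary and tertiary granule) and 0.974 for Clec4e to 3.38 for Il1b (other mature). In KO replicate 2, Pglyrp1 and Anxa1 held 151 and 150 of the 326 CPM of the secondary and tertiary list. It was 1.71 for red pulp macrophage, 1.61 for T cell, 1.14 for monocyte, 1.11 for erythroid and 1.04 for platelet markers. Erythroid markers, among them near-identical globin copies, fell in 9 of 9 genes tested, from 228 to 379 CPM in WT to 105 to 136 CPM in KO NK cells. Of the eosinophil, basophil and mast cell markers 2 of 9 tested fell, and their sum was 146 to 245 CPM in WT and 81.0 to 99.0 CPM in KO NK cells. Monocyte markers fell in 3 of 10, dendritic cell markers in 2 of 10 and platelet markers in 2 of 10 genes. T cell markers fell in 0 and rose in 1 of 10. NK identity genes rose in 6 of 12, and their sum was 5824, 9500 and 6020 CPM in WT and 10613, 12631 and 12189 CPM in KO replicates 1 to 3. Without WT replicate 3, KO replicate 2 or KO replicate 3, 0 genes of these marker lists passed the test in either direction. The share of all genes called lower was then 0.06%, 0% and 0%, respectively. Without WT replicate 1, 0.48% of all genes fell. There 3 erythroid markers and 1 of the eosinophil, basophil and mast cell markers fell, and 0 of the other lists passed. Without KO replicate 1, 9.96% of all genes fell. There 10 of 10 B cell, 8 of 10 red pulp macrophage, 8 of 9 erythroid, 5 of 10 T cell and 5 of 10 dendritic cell markers fell. At most 4 of any other of these lists fell. The 2 WT libraries with the most neutrophil counts had the lowest NK sums. What part other cells have in the neutrophil differences was not tested.

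**Figure D4:**
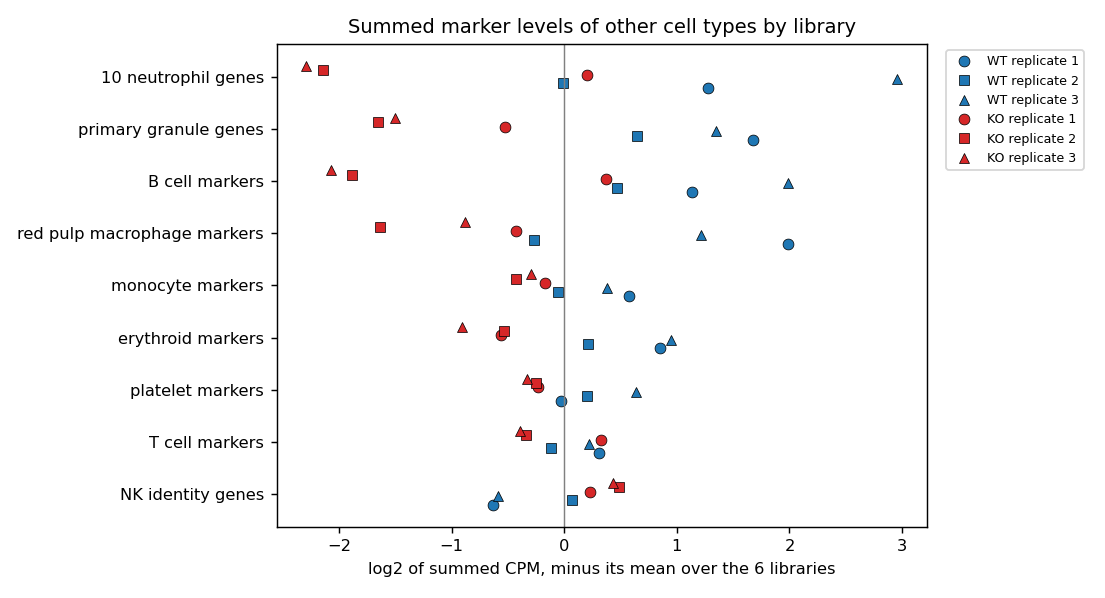
Summed CPM of the marker lists in each library, on a log2 scale, minus its mean over the 6 libraries; blue symbols are WT and red symbols KO libraries, and the shape marks the replicate number. KO replicate 1 lies near WT replicate 2 for the 10 neutrophil genes and for the B cell and red pulp macrophage markers. It is the highest library for the T cell markers, and lies near the other KO libraries for the erythroid and platelet markers.

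The genes on no list whose pattern over the 6 libraries was most like the mean of the 10 were Steap4, Arg2, Slfn4, Gm5483 and Sycp2. The measure was the root mean square difference of centred log2 levels among genes of at least 1 CPM on average, and it was smallest for Steap4, then 0.245 for Arg2, 0.419 for Slfn4, 0.461 for Gm5483 and 0.464 for Sycp2. Of the 10 genes themselves, Ngp ranked 4, Mmp8 20, Csf3r 26, Ltf 48, Mmp9 89, S100a9 127, S100a8 131 and Retnlg 269 on this measure, from 0.456 for Ngp to 1.47 for Retnlg. Steap4 was counted at 3.89, 1.12 and 12.3 CPM in WT and at 0.979, 0 and 0.055 CPM in KO replicates 1 to 3.

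In NK92MI cells, a line grown without other cells, 3 of 7 listed human counterparts matched a row. S100A9 was at most 0.757 CPM, CSF3R at most 0.365 CPM and MMP9 at most 1.01 CPM in the 6 libraries, with or without BIX-01294, and no test was made. The other listed counterparts had no row, so no level is given for them, and for 3 of the mouse genes no counterpart was used.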

How the data were processed

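The authors trimmed reads with fastp 0.23.4, mapped mouse reads to GRCm38/mm10 and human reads to GRCh38/hg38 with STAR 2.7.11b at up to 2 mismatches, and ran HTSeq 2.0.3; the deposited values are raw counts per gene symbol. The annotation release and strand setting are not given in the sources used here. Low mouse counts (1 to 19) were even in 85.9% to 89.4% of cases, and counts over 199 in 52.0% to 54.2%, so single counts may not be single fragments.

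The 10 genes and all lists were chosen with earlier results of these data known. Named genes are all 10, the further neutrophil genes with the smallest p (up to 6 in the majority direction, 3 in the other), and the 5 closest genes on no list. Counts were fitted with edgeR 4.0.16 in R 4.3.3 (TMM, filterByExpr, quasi-likelihood test, Benjamini-Hochberg adjustment over 13189 genes). The biological coefficient of variation was 18.2%. DESeq2 1.42.0 and limma 3.58.1 were alternatives. Gene positions, lengths and sequences come from GENCODE on GRCm38. The fits were tested on simulated data. No libraries were duplicates.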

Additional observations from a re-analysis of the deposited data

How the results depend on the processing

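For the 9 genes tested, all 150 log2 fold changes under the alternatives stayed below 0, between −9.67 and −0.88, and 0 genes rose under any of them. The number that fell was 2 with all libraries and moved with the libraries used: leaving out each replicate in turn gave 0 to 8 of the 10 genes, 0 to 15 further neutrophil genes lower and 0 to 3 higher, and 0 to 2097 genes lower and 0 to 1433 higher over the whole table. Without KO replicate 1 the number of the 10 that fell was 8, and without WT replicate 2 it was 7. Without any other single library it was 0, where 0% to 0.48% of all genes fell. Without WT replicate 3 and KO replicate 1 together, chosen after seeing the data, 7 of the 10 and 9 further genes fell, with 190 lower and 25 higher over all genes. Scaling to NK genes moved the median log2 fold change of all genes from 0.01 to −0.73. It gave 9 of the 10 genes and 21 further neutrophil genes lower, 0 further higher, 7963 genes lower and 40 higher, and turned Anxa1 to −0.17. DESeq2 gave 12 further genes lower and 2 higher, with 1989 lower and 1098 higher over all genes. At the study's thresholds (adjusted p under 0.01 and absolute log2 fold change over 0.5), edgeR called 0 of the 10, 0 further genes and 0 genes in all, in either direction, and DESeq2 called 2 of the 10, with 8.33% of all genes lower. At an unadjusted p under 0.05, an alternative added later, 8 of the 10, 19 further genes and 2639 of all genes were lower. Size factors, library totals, filters, limma-voom, halved counts and robust dispersion (the last 2 added later) left the count of the 10 genes at 2. The cause of these shifts was not tested.

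With the replicate number as a block, 3 of the 10 genes fell, 15 further genes fell and 2 rose, and 1930 genes were lower and 1292 higher. The labels do not say that a number marks a shared animal or batch. The deviations of same-numbered libraries correlated at 0.292, 0.374 and −0.189, so the numbers were not taken as a pairing. KO replicate 1 correlated about as well with WT replicate 3 as with WT replicate 1.

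Depth limits Ly6g, Camp, Ltf and Ngp, whose KO libraries held few counts. It also limits Retnlg, with 4 and 0 counts in KO replicates 2 and 3, and Mmp8, with 8 and 6.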
